A study of Mus musculus with 45 samples.

Results

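A2m, Prom1 and Chd5 were followed across the 24 RNA-seq samples of mouse embryonic stem cells (ESCs) in which the long noncoding RNA gene 5430416N02Rik had been deleted on 1 or on both alleles. The 3 genes were chosen by measured values. A2m and Prom1 were picked for their low level in homozygous ΔG cells kept as ESCs, and Chd5 for its high level in homozygous ΔG cells after retinoic acid (RA). They are 3 of the 22048 genes that varied in the table of ΔG samples and of the 21979 that varied in the table of ΔPG samples, and all 3 were measured in every sample. The genotype and RA differences of the ΔG cells are therefore given as descriptions with no test, while those of the separately normalized ΔPG table were tested. The rule that picked the genes names ΔG values only, but it was written with the ΔPG results known and the genes were described as specific to ΔG, so the ΔPG genotype tests are not independent of the choice.

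The parental cells were D3 mouse ESCs of strain 129, grown without feeders in serum and LIF. In ΔG cells the body of 5430416N02Rik was replaced by a cassette carrying GFP, an IRES and a puromycin resistance gene, and in ΔPG cells the gene body together with the promoter was replaced by a PGK-puro cassette. Each line was represented by heterozygous (het) and homozygous (hom) cells. The labels name the groups ES and RA only, with 3 samples in each of the 8 groups. By the study's description the RA was given at 2 µM for 48 h with DMSO as its control, and the ES groups were taken here to be those DMSO controls. Heterozygous cells served as the controls, so every control carried 1 deleted allele and the cassette, and wild-type cells were not part of the RNA-seq. The mutants were derived as clones, and the labels do not name the clone behind each sample, so genotype and clone cannot be told apart. The replicates are described as biological, but separate cultures are not named in the labels.

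A2m encodes alpha-2-macroglobulin, a secreted protein that traps proteases and is cleared by the receptor LRP1. Prom1 encodes prominin-1 (CD133), a cholesterol-binding membrane glycoprotein of plasma membrane protrusions that is widely used as a surface marker of stem and progenitor cells. Chd5 encodes an ATP-dependent chromatin remodeler of the chromodomain helicase DNA-binding (CHD) family, known mainly from neurons and from spermatids, which can be part of the NuRD complex in place of CHD3 or CHD4. Retinoic acid binds nuclear receptors and drives ESCs out of pluripotency, and the lineage they enter depends on the culture.

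By the GENCODE annotation of NCBIM37, the build used for the RNA-seq, A2m (ENSMUSG00000030111.8) lies on the plus strand of chromosome 6 at 121586191 to 121629255, with 1 transcript and 36 exon blocks. Prom1 (ENSMUSG00000029086.8) lies on the minus strand of chromosome 5 at 44384864 to 44493271, with 6 transcripts and 32 exon blocks. Chd5 (ENSMUSG00000005045.9) lies on the plus strand of chromosome 4 at 151712760 to 151764303, with 6 transcripts and 43 exon blocks. No gene overlaps A2m. Gm16401 overlaps Prom1 and Gm13645 overlaps Chd5, each on the opposite strand, and reads were counted by strand. Mean rlog values of Gm16401 were between -2.01 and -1.71 in all groups of both tables. Gm13645 was between -2.02 and -1.86 in the ΔG groups. The exonic sequence of Chd5 was rich in G and C (57.4%, above that of 88.6% of the genes that varied in the ΔG table), against 49.2% for A2m and 46.1% for Prom1.

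Promoter windows from RefSeq (GRCm38.p6, 250 bases before to 50 after the start) were matched by symbol for Prom1 and Chd5. They are shown to give the sequence at each start, and no difference between groups was set against them. Both strands were searched for the GC box with the letters GGGCGG, for the CCAAT box, for the TATA box with the letters TATAAA, for a KLF site written GGGTGTG and for the retinoid receptor hexamer written AGGTCA. Also searched were DR5 and DR2, the direct repeats of that hexamer, which overlap its matches. Capitals mark every match. The Chd5 window at chr4:152338401-152338700 on the plus strand starts transcription at the same base as the GENCODE gene, has 70.7% G and C and 32 CpG, and held 3 GC boxes, of which 1 was on the plus and 2 on the minus strand. A second RefSeq window of Chd5 lies 3 bases downstream and held the same boxes.
Chd5: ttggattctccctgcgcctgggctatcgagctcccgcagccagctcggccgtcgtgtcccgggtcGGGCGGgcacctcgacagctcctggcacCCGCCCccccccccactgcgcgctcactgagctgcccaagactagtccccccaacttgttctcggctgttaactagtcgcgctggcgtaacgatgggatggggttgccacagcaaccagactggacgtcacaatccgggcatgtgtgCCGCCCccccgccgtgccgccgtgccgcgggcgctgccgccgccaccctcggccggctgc
The Prom1 window at chr5:44101687-44101986 on the minus strand starts 296 bases downstream of the GENCODE gene, has 57% G and C and 10 CpG, and held 1 GC box and 1 CCAAT. A second RefSeq window of Prom1, at chr5:44094719-44095018 and 7264 bases downstream of the GENCODE start, has 50.3% G and C and 4 CpG and held none of the letters searched.
Prom1: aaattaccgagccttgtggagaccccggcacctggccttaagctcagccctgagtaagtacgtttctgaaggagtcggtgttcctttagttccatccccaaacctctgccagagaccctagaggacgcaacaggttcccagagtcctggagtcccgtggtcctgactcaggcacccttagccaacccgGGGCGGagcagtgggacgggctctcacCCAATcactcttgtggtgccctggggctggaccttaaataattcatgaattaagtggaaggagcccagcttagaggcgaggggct
Of 32544 RefSeq promoters of this length, 35.9% held the GC box, 37.4% the CCAAT box, 13.6% the TATA box, 7.98% the KLF site and 16.2% the hexamer. DR5 and DR2 were each found in 0.00922%. The letters of the TATA box, the KLF site, the hexamer and its repeats were not in either printed window.

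All values below are regularized log (rlog) values, which are on the log2 scale and shrink low genes towards their mean. The targeted gene was checked first. In ΔG cells 5430416N02Rik was at 5.50 to 5.58 in heterozygous and 2.63 to 2.85 in homozygous ES samples, and at 5.52 to 5.64 and 2.63 to 3.08 after RA. In ΔPG cells it was at 4.58 to 4.62 and 2.21 to 2.46 in ES, and at 3.80 to 4.44 and 2.12 to 2.66 after RA. The heterozygous and homozygous samples did not overlap in any of the 4 comparisons. Samples of 1 group correlated across genes at r = 0.991 to 0.997. The 12 listed ESC markers had a summed level (log2 of the summed linear values) of 14.01 to 14.30 in ES samples and 10.95 to 11.07 after RA. All 8 listed RA targets were called higher after RA in each of the 4 groups, and 14 of 16 extraembryonic endoderm markers were as well, where 17.7% of all genes were called higher in heterozygous ΔG, 17% in homozygous ΔG, 18% in heterozygous ΔPG and 16.5% in homozygous ΔPG cells. Of 12 neural markers, 4 were called higher and 2 lower in each, while Neurog2, Fabp7, Hes5 and Pou3f2 had a mean rlog under 1 in every group. A gene was called at an adjusted p (limma, Benjamini-Hochberg over the whole table) under 0.1 and a log2 difference over 0.5 in size.

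A2m was an ESC-high gene in both lines. It was lower after RA in every group, and in ΔG cells its homozygous ES samples sat below the heterozygous ones. In ΔG ES cells it was at 7.57, 7.69 and 7.81 in the 3 heterozygous samples and at 6.03, 6.34 and 6.26 in the 3 homozygous samples. After RA the heterozygous samples were at 3.79, 3.92 and 4.12 and the homozygous at 3.57, 3.86 and 3.74. Thus the genotypes were apart in ES and overlapped after RA. The homozygous minus heterozygous difference was -1.48 ± 0.10 (SE) in ES and -0.22 ± 0.14 after RA. In ES this was the second largest fall of the table after that of 5430416N02Rik, with Prom1, Ndrg1 (-1.18) and Loxl2 (-1.14) next in order. The background in ΔG ES was 0.984% of genes called, and 17.8% had samples that did not overlap between genotypes. From ES to RA, A2m differed by -3.75 in heterozygous and by -2.49 in homozygous ΔG cells, where 29.5% and 29.2% of genes were called in either direction. The genotype difference changed with RA by 1.26 for A2m, by 1.02 for Prom1 and by 0.95 for Chd5, in a test that called 2.38% of genes in ΔG cells.

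**Figure D1:**
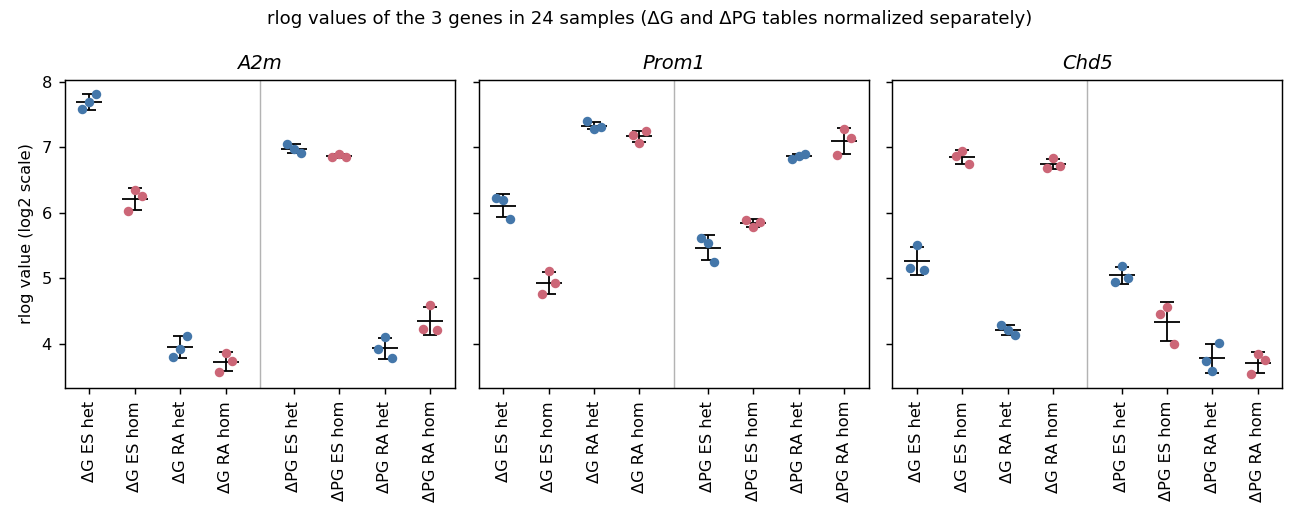
rlog values (y axis, log2 scale) of A2m, Prom1 and Chd5 in each of 24 samples, grouped on the x axis by line, treatment and genotype (blue heterozygous, red homozygous), with the mean as a long and the SD as short bars (n = 3). A2m is high in ES and low after RA in both lines, Prom1 is higher after RA, and Chd5 in homozygous ΔG samples stays between 6.68 and 6.94 in ES and RA while the heterozygous ΔG samples lie between 4.13 and 5.50.

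In ΔPG cells A2m was at 7.05, 6.97 and 6.92 in heterozygous and at 6.84, 6.89 and 6.84 in homozygous ES samples. The samples did not overlap, as was so for 39.6% of all genes here. The difference was small, at -0.12 ± 0.05 (95% interval -0.24 to 0.00797), and did not pass the test (adjusted p = 0.156). The interval does not reach the size seen in ΔG cells, although the lines were normalized apart and no test across them was made. After RA, A2m was at 3.91, 4.10 and 3.77 in heterozygous and at 4.22, 4.59 and 4.21 in homozygous ΔPG samples. The homozygous samples were all above the heterozygous ones, by 0.41 ± 0.15, without passing the test (adjusted p = 0.242, 95% interval 0.07 to 0.76), and 18.8% of genes likewise did not overlap here. The fall from ES to RA passed in both genotypes, by -3.05 ± 0.10 in heterozygous cells (adjusted p = 2.00e-07) and by -2.52 ± 0.12 in homozygous cells (adjusted p = 1.14e-08). The genotype difference of A2m thus went from -0.12 in ES to 0.41 after RA, a change of 0.53 ± 0.16 (adjusted p = 0.0219), where 13.9% of genes were called. This call was lost without heterozygous ES replicate 1 (0.50), heterozygous RA replicate 3 (0.45) or homozygous RA replicate 2 (0.41), since the difference then no longer exceeded 0.5.

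Prom1 behaved in the opposite way to A2m with respect to RA, being higher after RA in every group. In ΔG ES cells it was at 6.23, 6.19 and 5.91 in heterozygous and at 4.76, 5.10 and 4.92 in homozygous samples. After RA it was at 7.39, 7.28 and 7.31 in heterozygous and at 7.18, 7.07 and 7.24 in homozygous samples. The homozygous samples were lower at both stages, by a wide margin in ES and narrowly after RA. Samples likewise did not overlap for 17.8% of all genes in ES and for 21.8% after RA. The difference was -1.18 ± 0.12 in ES, the third largest fall of the table. It was -0.16 ± 0.08 after RA, where it ranked 3752 among the falls. The values just outside the choice were Ndrg1 at -1.18, Loxl2 at -1.14 and P4ha2 at -1.07. From ES to RA, Prom1 differed by 1.22 in heterozygous and by 2.24 in homozygous ΔG cells, so that the homozygous cells started lower and ended near the heterozygous level.

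In ΔPG cells Prom1 was at 5.61, 5.54 and 5.24 in heterozygous and at 5.89, 5.78 and 5.86 in homozygous ES samples. Here the homozygous samples were the higher ones and did not overlap the heterozygous ones, as was so for 39.6% of all genes in this comparison. The difference was 0.38 ± 0.11 (95% interval 0.13 to 0.63, adjusted p = 0.0284), which passed the limit on p and not that on size. Over 16 alternatives of the processing it ran from 0.23 to 0.45, with limma's adjusted p up to 0.116. After RA the heterozygous samples were at 6.82, 6.86 and 6.89 and the homozygous at 6.87, 7.27 and 7.15. These overlapped, and the difference of 0.24 ± 0.09 did not pass (adjusted p = 0.273). Prom1 rose from ES to RA by 1.40 ± 0.10 in heterozygous cells (adjusted p = 1.20e-05) and by 1.25 ± 0.10 in homozygous cells (adjusted p = 1.30e-06). The genotype difference did not pass a test of change between ES and RA (-0.14 ± 0.15, adjusted p = 0.60, 95% interval -0.46 to 0.18).

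Chd5 was higher in homozygous than in heterozygous ΔG cells at both stages. It was at 5.16, 5.50 and 5.12 in heterozygous and at 6.86, 6.94 and 6.73 in homozygous ES samples. After RA it was at 4.29, 4.21 and 4.13 in heterozygous and at 6.68, 6.83 and 6.71 in homozygous samples. The genotypes were far apart at both stages, and within the homozygous cells the ES and RA samples overlapped. The difference was 1.59 ± 0.12 in ES, the fifth largest rise of the table between Xlr3c (2.03) and Efhc2 (1.58). It was 2.53 ± 0.11 after RA, the third largest after Hist3h2ba (4.79) and Rnf187 (3.50), in a comparison where 2.14% of genes were called and 21.8% did not overlap. From ES to RA the heterozygous cells differed by -1.05 ± 0.13 and the homozygous cells by -0.11 ± 0.09. The larger genotype difference after RA thus came with a lower heterozygous level, not with a higher homozygous level, and Chd5 was picked for a difference that was already present in ES.

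In ΔPG cells Chd5 was at 4.93, 5.19 and 4.99 in heterozygous and at 4.45, 4.55 and 3.99 in homozygous ES samples. The homozygous samples were the lower ones, with no overlap, opposite to ΔG cells. The fall of 0.71 ± 0.16 on the log2 scale was called (adjusted p = 0.0106, 95% interval -1.08 to -0.34), which made Chd5 the 1 called gene of the 3 where 13.2% of genes were called and 39.6% did not overlap. In this comparison the log2 difference of a gene moved with its exonic G and C content (Pearson's r = -0.704 across 11904 genes, which are not independent replicates), against -0.21 to 0.13 in the other 7 comparisons of 2 groups. With that trend removed the Chd5 difference was -0.31 (adjusted p = 0.0859) and no longer called. After RA it was at 3.73, 3.58 and 4.01 in heterozygous and at 3.53, 3.83 and 3.75 in homozygous ΔPG samples. These overlapped, with a difference of -0.06 ± 0.16 (adjusted p = 0.912, 95% interval -0.42 to 0.30). The interval leaves out a rise of the size seen in ΔG cells. None of the 3 genes was called between the ΔPG genotypes after RA (limma), where 0.846% of genes were. An unadjusted p under 0.05 was found for 2 of 3, against 14% of all genes.

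**Figure D2:**
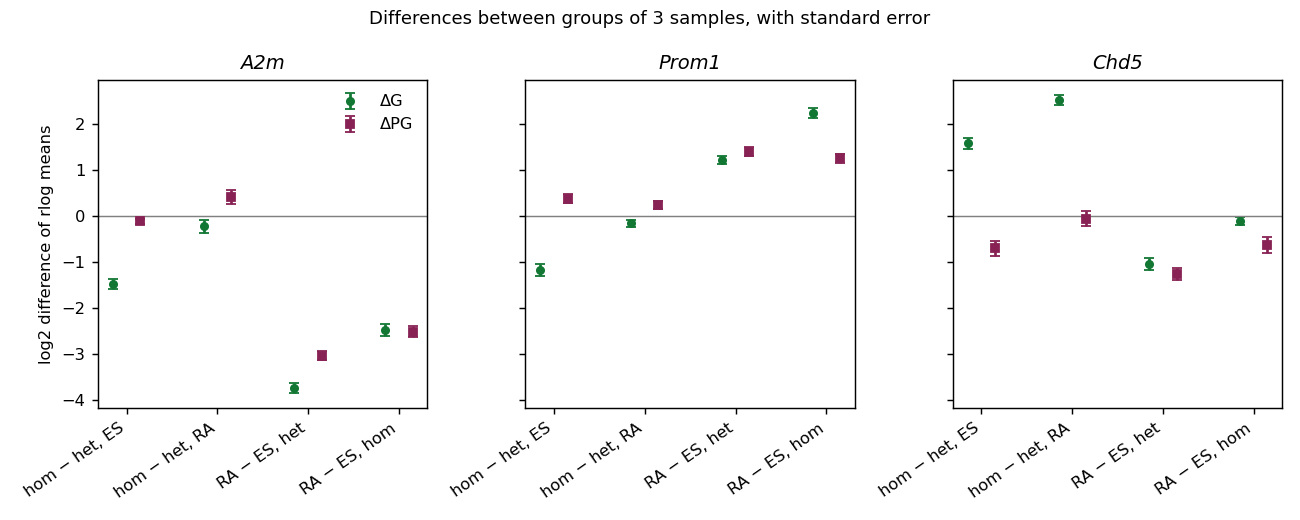
Differences between groups of 3 samples (y axis, log2 difference of rlog means, with limma's standard error) for A2m, Prom1 and Chd5 in ΔG (green circles) and ΔPG cells (purple squares), with the 4 comparisons on the x axis. The genotype differences of ΔG cells (-1.48, -1.18 and 1.59 in ES) have no counterpart of like size and sign in ΔPG cells (-0.12, 0.38 and -0.71). The RA differences of all 3 genes share their sign in the 2 lines, although that of Chd5 in homozygous ΔG cells is small (-0.11 ± 0.09).

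The fall of Chd5 from ES to RA passed in both ΔPG genotypes, by -1.27 ± 0.14 in heterozygous cells (adjusted p = 0.000145) and by -0.63 ± 0.18 in homozygous cells (adjusted p = 0.0122). All 3 genes were thus called in both RA comparisons of ΔPG cells, where 31.6% of genes were called in heterozygous and 27.8% in homozygous cells. The genotype difference of Chd5 shrank from -0.71 in ES to -0.06 after RA, a signed change of 0.64 ± 0.23 (adjusted p = 0.0593). This call was lost in 6 of the 12 fits that left out 1 library, with adjusted p between 0.110 and 0.139, and with the G and C trend removed (0.25, adjusted p = 0.433). The libraries were heterozygous ES replicate 2, homozygous ES replicate 3, heterozygous RA replicates 1 and 2 and homozygous RA replicates 2 and 3.

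The order of the groups differed between the genes. A2m in ΔG cells ran from heterozygous ES (7.69 ± 0.12, SD, n = 3) over homozygous ES (6.21 ± 0.16) to heterozygous RA (3.94 ± 0.16) and homozygous RA (3.72 ± 0.15), and the last pair overlapped. In ΔPG cells homozygous RA (4.34 ± 0.21) stood above heterozygous RA (3.93 ± 0.16) and no neighbours overlapped. Prom1 in ΔG cells was highest in heterozygous RA (7.33 ± 0.06) and lowest in homozygous ES (4.92 ± 0.17). In ΔPG cells it was highest in homozygous RA (7.10 ± 0.20), which overlapped heterozygous RA (6.86 ± 0.03), and lowest in heterozygous ES (5.46 ± 0.19). Chd5 in ΔG cells was ordered by genotype, with both homozygous groups (6.85 ± 0.11 in ES and 6.74 ± 0.08 after RA) above heterozygous ES (5.26 ± 0.21) and heterozygous RA (4.21 ± 0.08). In ΔPG cells it was ordered by treatment, from heterozygous ES (5.04 ± 0.13) and homozygous ES (4.33 ± 0.30) to RA at 3.77 ± 0.22 and 3.71 ± 0.16, and the last 3 groups overlapped as neighbours. In bulk samples fewer expressing cells and less RNA per cell cannot be told apart.

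**Figure D3:**
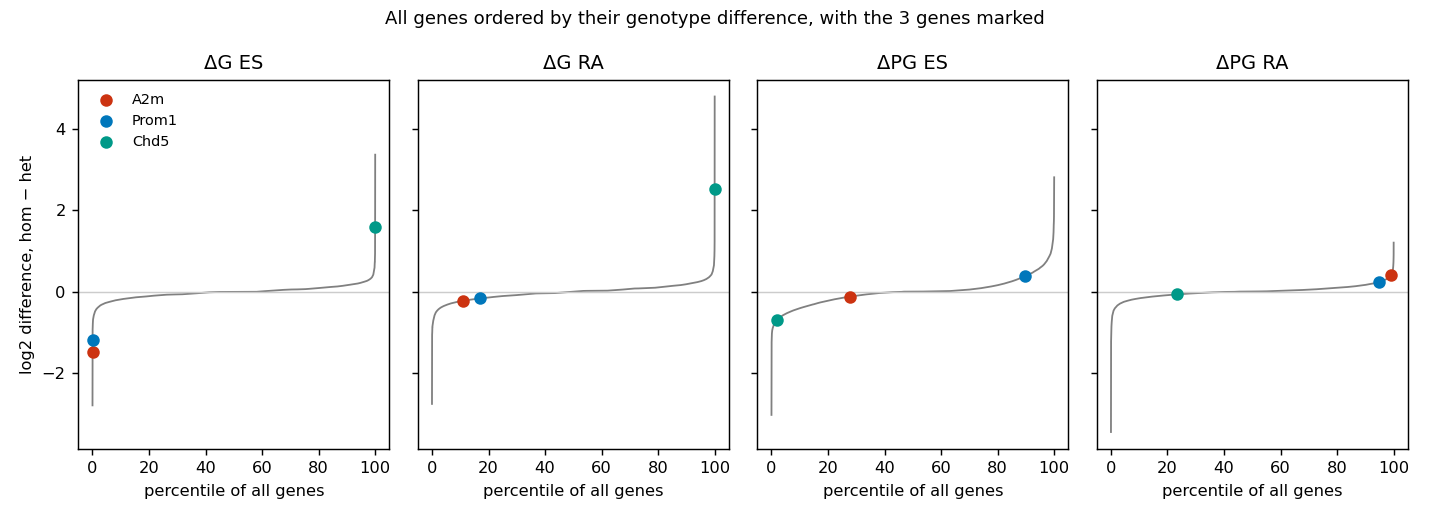
All genes ordered by their homozygous minus heterozygous difference (x axis, percentile of all genes, y axis, log2 difference) in the 4 genotype comparisons, with A2m, Prom1 and Chd5 marked. The 3 genes stand at the ends of the curve in ΔG ES, where A2m and Prom1 were chosen. In ΔG RA, where Chd5 was chosen, Chd5 alone does, at 2.53.

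Genes with a like pattern were ranked by Pearson's r over the 12 samples of a table, among 4441 genes in the ΔG and 5043 in the ΔPG table with a mean rlog of at least 3 and a range of at least 1. The samples share their treatment and genotype groups, so these values are descriptions. In ΔG cells A2m was followed most closely by Gpi1 (r = 0.998), Stc2 (0.994) and Higd1a (0.992). Gpi1 showed the same order of groups, at 11.04, 10.67, 10.11 and 10.03. For Prom1 the closest genes were Vwa5a (0.989), Skil (0.982) and Med12l (0.981), with Vwa5a at 6.09 in heterozygous and 5.28 in homozygous ES and at 7.07 and 6.77 after RA. For Chd5 they were Efhc2 (0.938), Steap3 (0.928) and Eif2b3 (0.903), a looser likeness. Efhc2 was at 5.30 and 6.89 in ES and at 5.01 and 6.23 after RA. In ΔPG cells the closest genes were Dnahc8, Aldoa and Ooep for A2m (each 0.997), Zscan4b, Ak3 and Serpinf1 for Prom1 (0.991 to 0.986) and Nthl1, Surf6 and Grwd1 for Chd5 (0.979 to 0.977). No gene was among the closest 3 of the same gene in both tables. Between the 3 genes themselves r was -0.70 (A2m and Prom1), 0.05 (A2m and Chd5) and -0.50 (Prom1 and Chd5) in ΔG cells, and -0.94, 0.84 and -0.88 in ΔPG cells.

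Of the other 9 CHD remodelers, 1 was called in ΔG ES cells, where 0.984% of all genes were. This was Chd7 (-0.50 ± 0.11, adjusted p = 0.0626). An unadjusted p under 0.05 was found for 3 of the 9, against 15.4% of all genes, and the median of the 9 was -0.08 against -0.01 over all genes. Chd7 stood at the limit, and its call was lost under both other scalings of the samples and in 4 of 6 fits without 1 library. After RA 1 of 9 was called against 2.14% of all genes, namely Chd3 (0.53 ± 0.06, adjusted p = 5.52e-06). Here 4 of 9 had an unadjusted p under 0.05, against 19.6% of all genes, and the median was -0.04 against 0.00. Chd3, a helicase subunit that NuRD can hold in place of CHD4 or CHD5, was at 7.96 in heterozygous and 8.49 in homozygous RA cells. In ΔG ES its difference was 0.25 ± 0.21 (adjusted p = 0.646). In ΔPG ES cells 7 of 9 had an unadjusted p under 0.05, against 38.4% of all genes, and 1 was called where 13.2% were. This was Chd9, which was higher (0.53 ± 0.06, adjusted p = 0.000338), while Chd4 (-0.46, adjusted p = 1.85e-06) and Chd3 (-0.42, adjusted p = 0.0509) were within the limit on size. With the G and C trend removed the difference of Chd9 was 0.22 and no longer called. With RA alone the family was not uniform. Chd3 rose by 2.66 in heterozygous and by 2.94 in homozygous ΔG cells and by 1.97 and 2.28 in ΔPG cells, while Chd5 fell in both ΔPG genotypes.

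**Figure D4:**
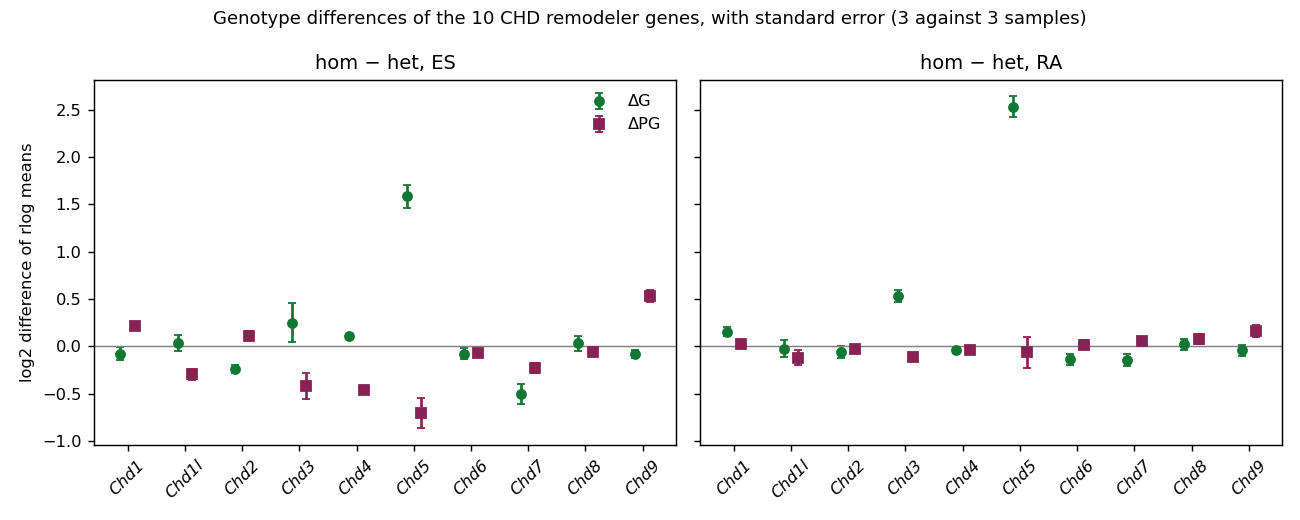
Homozygous minus heterozygous differences (y axis, log2, with limma's standard error) of the 10 CHD remodeler genes (x axis) in ES (left) and after RA (right), for ΔG (green circles) and ΔPG cells (purple squares). In ΔG cells Chd5 stands at 1.59 in ES and 2.53 after RA, and the other 9 genes lie between -0.50 and 0.53.

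Of the 12 NuRD subunits outside the CHD family, such as the histone deacetylases Hdac1 and Hdac2, 0 were called in either genotype comparison of ΔG cells by limma, where 0.984% in ES and 2.14% after RA of all genes were. Of the 12, 4 in ES and 2 after RA had an unadjusted p under 0.05, against 15.4% and 19.6% of all genes. The medians were 0.07 and 0.05, against -0.01 and 0.00 over all genes. In ΔPG ES cells 11 of 12 had an unadjusted p under 0.05, against 38.4% of all genes, and 1 of 12 was called where 13.2% were, with a median of 0.07 against 0.00. The called subunit was Hdac2, which was higher (0.58 ± 0.04, adjusted p = 2.61e-05), which with the G and C trend removed was 0.07 and no longer called. Mbd2, which was not called at first (0.48), was called higher with that trend removed (0.63). After RA 0 of 12 were called in ΔPG cells by limma against 0.846% of all genes, with 3 at an unadjusted p under 0.05 against 14% of all genes.

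Of the alpha-macroglobulin list, 7 genes other than A2m varied in the ΔG table and 8 in the ΔPG table, and Mug1 and Mug2 in the ΔG and Mug2 in the ΔPG table were listed at 0. Pzp, the closest relative of A2m measured, had group means between 0.76 and 1.84 and was called in none of the 4 genotype comparisons, with differences between 0.05 and 0.17. Lrp1, the receptor that takes up A2M bound to proteases, fell with the homozygous genotype in ES cells of both lines. It was at 8.02 in heterozygous and 7.39 in homozygous ΔG ES cells (-0.63 ± 0.07, adjusted p = 0.00443) and at 8.40 and 7.80 in ΔPG ES cells (-0.60 ± 0.08, adjusted p = 0.000677). Lrp1 was the 1 called of 7 in ΔG ES, where 0.984% of all genes were, and the 1 of 8 in ΔPG ES, where 13.2% were. An unadjusted p under 0.05 was found for 1 of 7 and 2 of 8, against 15.4% and 38.4% of all genes. With the G and C trend removed the ΔPG difference of Lrp1 was -0.21 and no longer called. After RA the difference was -0.09 (adjusted p = 0.363) in ΔG and 0.04 (adjusted p = 0.640) in ΔPG cells. Lrp1 rose with RA, by 1.48 and 2.01 in heterozygous and homozygous ΔG cells, opposite in direction to A2m. Lrpap1, the chaperone of that receptor, was called lower after RA in homozygous cells of both lines (-0.50, adjusted p = 1.21e-06, in ΔG, and -0.58, adjusted p = 0.000310, in ΔPG). After RA 1 of 7 was called in ΔG cells, against 2.14% of all genes, and 1 of 8 in ΔPG cells, against 0.846%. An unadjusted p under 0.05 was found for 1 of 7 and 1 of 8, against 19.6% and 14% of all genes. The ΔG value of Lrpap1 stood at the limit, and its call was lost without 4 of the 6 libraries in turn and with sample medians equalized.

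Among the prominins and surface markers of stem and progenitor cells, 0 of the 11 genes other than Prom1 were called in ΔG ES by limma, where 0.984% of all genes were. Of the 11, 5 had an unadjusted p under 0.05, against 15.4% of all genes, and the median was -0.12. Prom2, the other prominin, had a mean rlog under 1 in every group. After RA the cell adhesion molecule Alcam was called lower in homozygous ΔG cells (-0.82 ± 0.13, adjusted p = 0.000179), at 5.23 in heterozygous and 4.41 in homozygous cells. It was the 1 called of 11, against 2.14% of all genes, and 5 of 11 had an unadjusted p under 0.05, against 19.6%. In ΔPG ES cells Cd24a, a glycosylated surface antigen, was called higher (1.00 ± 0.05, adjusted p = 3.71e-06), also with the G and C trend removed (0.64). It was the 1 called of 11, where 13.2% of all genes were called, and 2 of 11 had an unadjusted p under 0.05, against 38.4%. After RA 0 of 11 were called in ΔPG cells by limma, where 0.846% of all genes were. An unadjusted p under 0.05 was found for 0 of 11, against 14% of all genes.

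Markers of extraembryonic endoderm moved with genotype after RA in both lines. Of 16 listed, 6 were called lower in homozygous ΔG cells and 8 in homozygous ΔPG cells, among them Lama1 (-1.03 and -0.95) and Cubn (-1.15 and -1.24). Over all genes 1.46% were called lower in ΔG and 0.605% in ΔPG cells. The summed level of the 16 was 13.41 to 13.46 in heterozygous and 12.74 to 12.76 in homozygous ΔG RA samples, and 13.11 to 13.14 and 12.31 to 12.37 in ΔPG. No marker of the list had a mean rlog under 1 in these groups. Their part in the values of the 3 genes was not tested. In ΔG ES, where A2m and Prom1 stood apart most, 0 of the 16 were called by limma, and 0 of the 12 ESC markers were, against 0.984% of all genes. At an unadjusted p under 0.05 there were 3 and 5, against 15.4% of all genes. The summed level of the 16 was lower in homozygous ΔG ES samples without overlap, at 10.15 to 10.23 against 10.26 to 10.34. In ΔPG ES 1 of the 16 was called higher and 2 lower, and 1 ESC marker lower, Pou5f1 (-0.52), against 13.2% of all genes. With the G and C trend removed these were not called. Unadjusted p under 0.05 held for 6 of 16 and 9 of 12, against 38.4%. Homozygous ΔPG ES sums were lower, at 10.32 to 10.36 against 10.69 to 10.75 (the 16) and 14.01 to 14.03 against 14.20 to 14.24 (ESC). Of the 12 fibroblast markers 1 was called lower after RA in homozygous ΔG cells and 2 in homozygous ΔPG cells, with summed levels of 11.20 to 11.31 against 11.10 to 11.15 in ΔG and 11.26 to 11.30 against 11.01 to 11.07 in ΔPG. In ΔG ES 0 of the 12 were called by limma, with 1 at an unadjusted p under 0.05, and their summed level was 11.73 to 11.75 in heterozygous and 11.40 to 11.43 in homozygous samples, a wider gap than after RA. In ΔPG ES it was at most 11.05 in heterozygous and at least 11.17 in homozygous samples, the opposite order. Of the 12 neural markers 1 was called lower in homozygous ΔG ES cells, against 0.984% of all genes. After RA 1 was called higher and 1 lower, against 2.14%. In ΔPG ES 2 were called lower, against 13.2%, namely Nes and Tubb3, which were not called with the G and C trend removed. In ΔPG RA 0 were called by limma, against 0.846%. An unadjusted p under 0.05 was found for 2 in ΔG ES and 4 after RA, against 15.4% and 19.6% of all genes. In ΔPG cells there were 3 and 3, against 38.4% and 14%. The neural sum after RA was 9.86 to 9.92 in heterozygous and 9.97 to 10.04 in homozygous ΔG samples. In ΔPG the order was opposite, at 10.19 to 10.21 and 10.04 to 10.11. In ES the sums overlapped in ΔG and were lower in homozygous ΔPG samples. The part of these markers in the values of the 3 genes was not tested.

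Within 500 kb of the 3 loci, 6 genes near A2m, 12 near Prom1 and 22 near Chd5 were tested. In ΔG ES cells 0 of them were called by limma, which stands near the 0.984% of all genes. There were 1, 2 and 3 at an unadjusted p under 0.05, against 15.4% of all genes. After RA 1 was called against 2.14% of all genes, Cc2d2a near Prom1 (-0.71). Rpl22, the nearest gene before Chd5, differed in ΔG cells by -0.45 in ES (adjusted p = 0.000240) and by -0.38 after RA (adjusted p = 7.90e-06), opposite to Chd5. Rpl22 passed the limit on p there and not that on size, so it was not called. Kcnab2, the nearest gene after Chd5, differed by -0.06 in ΔG ES. In ΔPG ES cells, where 13.2% of all genes were called, 5 of 21 genes near Chd5 were called. Rpl22 was higher (0.72), and was still called with the G and C trend removed (0.79). Gpr153, Klhl21, Plekhg5 and Zbtb48 were lower, at -0.69 to -0.56, and with the trend removed they were at -0.26 to -0.10 and not called. Near Prom1, 2 of 12 were called, Cd38 (0.83) and Fgfbp1 (-0.53), which with the trend removed were at 0.26, not called, and at -0.53, still called. Near A2m, 1 of 7 was called, Pex26 (-0.58), which was -0.37 and not called with the trend removed.

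**Figure D5:**
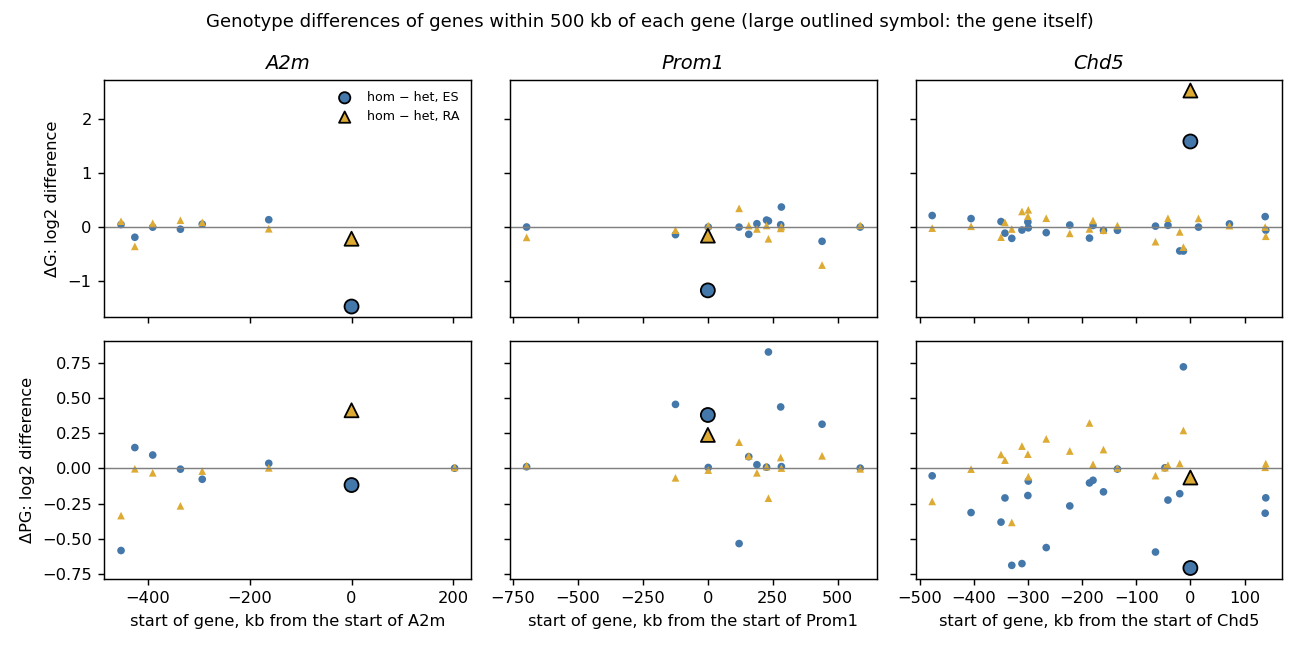
Homozygous minus heterozygous differences (y axis, log2) of genes within 500 kb of A2m, Prom1 and Chd5, by the distance of their start from that of the named gene in the direction of its transcription (x axis, kb), for ES (blue circles) and RA (yellow triangles) in ΔG (top) and ΔPG cells (bottom, with a different y scale). The named genes are the large outlined symbols, which in the top row lie at -1.48, -1.18 and 1.59 in ES, away from their neighbours.

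Finally, the positions were set against the 4C-seq regions of 2 replicates, which the authors called as contacts of the 5430416N02Rik promoter in ESCs. The region ends fit GRCm38 rather than NCBIM37. Taken as NCBIM37 positions, 24 of 680 starts matched a HindIII cut, against 623 of 676 once the local difference between the builds was subtracted, and 9 regions end past an NCBIM37 chromosome. On GRCm38, A2m lay inside a region in both replicates. Prom1 lay inside a region in replicate 1 and 91.6 kb from the nearest in replicate 2. Chd5 lay inside a region in replicate 2 and 549 kb from the nearest in replicate 1. The regions were broad, and 53.4% and 52.9% of 21900 protein-coding genes overlapped one in replicates 1 and 2, so that the counts of A2m and Chd5 stand near the background. Prom1 lies on chromosome 5, which also carries the bait 5430416N02Rik and held 56 regions in each replicate. Chromosome 6 of A2m held 18 and 17, and chromosome 4 of Chd5 held 15 and 19. The authors called regions on the bait chromosome with other windows, so the share over all chromosomes is no background for Prom1.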

How the data were processed

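Expression tables covering 24 samples and contact regions from 2 4C-seq replicates entered the work, while RIP-seq and Capture-C were not used here. Ribosome-depleted stranded RNA was sequenced, and the authors aligned the reads to mm9 with TopHat2 2.1.0, removed duplicates with Picard, counted reads per gene with HTSeq 0.6.0 and normalized the counts with DESeq2 1.14.1. The deposited RNA-seq values are rlog values on the log2 scale, in a table of 12 ΔG and a table of 12 ΔPG samples that were normalized separately. They hold no counts, so the sequencing depth behind a value is unknown, no interval for counting error can be given, and differences of low genes are shrunken. The 4C-seq files hold region positions only.

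R 4.3.3 with limma 3.58.1 (lmFit, then eBayes with trend) was run on the 6 samples of each comparison over all varying genes, and to 12 samples for the change of the genotype difference with RA. The limits were a Benjamini-Hochberg adjusted p under 0.1 and a log2 difference over 0.5 in size. Because the ΔG values chose the 3 genes, their ΔG values carry no test. The genes and the lists were chosen with earlier results of these data known. Besides the 3 genes, the text names 5430416N02Rik, called list members, neighbours in rank, the 3 genes of highest correlation, and genes next to the loci. Uncalled genes named with values (Pzp, Prom2, Chd4, Mbd2, and Chd3 in ES) and called genes within 500 kb were chosen after their values were seen. Alternatives were all 12 samples in 1 fit, a mean rlog of at least 3, quantile normalization, equalized medians, no variance trend, other limits, a replicate block, each sample left out, and removal of the trend with exonic G and C content by lowess (span 0.3). The fits were tested on simulated data. Python 3.11.15 with pandas 2.3.3 was used for positions and sequences. Samples were not paired by replicate number in the main fits. The p-values measure the spread between these samples, which may be technical.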

Additional observations from a re-analysis of the deposited data

Results flagged for a closer look

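Prom1 differed between homozygous and heterozygous ES cells by -1.18 in ΔG and by 0.38 in ΔPG cells, with every homozygous sample below the heterozygous samples in ΔG and above them in ΔPG. Chd5 did the reverse, with 1.59 in ΔG and -0.71 in ΔPG cells. Over all genes, 17.8% did not overlap between the genotypes in ΔG ES and 39.6% in ΔPG ES. The differences of Prom1 and Chd5 between lines were not tested, because the lines were normalized separately. With the G and C trend removed the ΔPG value of Chd5 was -0.31. The ΔPG value of Prom1 ran from 0.23 to 0.45 over 16 alternatives, with limma's adjusted p from 0.00518 to 0.116. Within ΔPG cells the genotype difference of A2m went from -0.12 in ES to 0.41 after RA, a change of 0.53 (adjusted p = 0.0219) by limma's interaction term. That of Chd5 shrank from -0.71 to -0.06, a signed change of 0.64 (adjusted p = 0.0593). With the G and C trend removed the change of Chd5 was 0.25 (adjusted p = 0.433), and its call was lost in 6 of 12 fits that left out 1 library.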

How the results depend on the processing

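Of 255 alternative values of the 3 genes in ΔPG cells, 239 kept their side of the limits, and no called value changed sign. In ΔG cells, whose values carry no test, 247 of 255 moved by less than the spread between replicates. Quantile normalization moved 6 values of ΔG cells, namely Chd5 to 2.76 (RA genotype difference), -1.42 (RA response of heterozygous cells) and 1.26 (change of the genotype difference), A2m to -3.98 and -2.74 (RA response of heterozygous and homozygous cells) and Prom1 to 2.03 (RA response of homozygous cells). Removing the G and C trend gave -0.28 for the RA response of Chd5 in homozygous ΔG cells, -0.31 for its ΔPG ES difference and 0.25 for its ΔPG change between ES and RA, the last 2 no longer called, with or without the replicate block. Under an adjusted p under 0.05 and a 1.5-fold limit the ΔPG changes between ES and RA of A2m (0.53) and Chd5 (0.64) were not called, and with no limit on size the ΔPG ES difference of Prom1 (0.38) was. With 1 library left out the change between ES and RA ran from 0.41 to 0.61 for A2m and from 0.47 to 0.76 for Chd5.

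The deviations of samples with the same replicate number from their group means correlated at r from -0.03 to 0.09. Samples of different numbers were not compared, so whether the numbers pair samples cannot be decided from these values. The replicate block by itself changed no call of the 3 genes in ΔPG cells, and moved the number of called genes from 217 to 44 in ΔG ES and from 186 to 112 in ΔPG RA. Among genes with a mean rlog of at least 3, the G and C correction moved it from 2784 to 865 in ΔPG ES and from 2976 to 1116 for the ΔPG change between ES and RA. An adjusted p under 0.05 together with a 1.5-fold limit gave 117 genes in ΔG ES, 275 of 471 in ΔG RA and 268 of 524 for the ΔG change, and no limit on size gave 1152, 2433 and 1164 there. With no limit on size ΔPG had 7926 in ES, 1006 in RA and 6387 for the change, and the RA responses had 12012 against 6499 (heterozygous ΔG), 11772 against 6434 (homozygous ΔG), 12607 against 6947 and 11424 against 6116 (ΔPG). Quantile normalization shifted the split of higher against lower calls from 78 and 139 to 70 and 78 in ΔG ES, from 3911 and 2588 to 3042 and 3304 (heterozygous ΔG, RA response), from 3759 and 2675 to 2941 and 3305 (homozygous ΔG) and from 3634 and 2482 to 2864 and 2960 (homozygous ΔPG). List counts stayed within 1.5 times in 1350 of 1530 cases. With NCBIM37 positions Chd5 lay in a 4C region in 2 replicates, against 1, and Prom1 lay inside a region in replicate 2 and 227 kb from one in replicate 1, the reverse of its GRCm38 placing. Where no value above shows it, the cause was not tested.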
